A study of Mus musculus with 9 samples.

Results

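The matrix metalloprotease (*Mmp*), *Adamts* and tissue inhibitor of metalloproteases (*Timp*) genes were examined in mouse embryonic fibroblasts (MEFs) of the Dp1Tyb mouse model of Down syndrome. Members were chosen by name: every protein-coding gene of the count table whose GENCODE M21 symbol is *Mmp* or *Adamts* followed by a number, or *Timp1* to *Timp4*. This gave 45 of the 43629 genes in the table, made up of 22 *Mmp*, 19 *Adamts* and 4 *Timp* genes, and 33 of them passed the filter on low counts. *Mmp1a*, a polymorphic pseudogene in this annotation, was not among them. RNA sequencing was carried out on 9 cultures from E14.5 littermate embryos, 4 wild-type (WT) and 5 Dp1Tyb, of the strain labelled C57BL/6J.129P2, which was backcrossed to C57BL/6JNimr. Dp1Tyb mice carry Dp(16Lipi-Zbtb21)1TybEmcf, an extra copy of the 22.4 Mb of chromosome 16 from *Lipi* to *Zbtb21* (GRCm38 75540514 to 97962622), and WT littermates do not. Head and viscera were removed from each embryo before culture and the MEFs were passaged, so each sample is a mixed population grown from an embryo. The study describes a culture from each of the 9 embryos, and the comparison asks how the extra chromosome segment changes expression in these cells.

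Matrix metalloproteases are zinc-dependent enzymes that are made as inactive precursors and cleave collagens, gelatin, elastin, proteoglycans and many cell surface proteins. Adamts enzymes are secreted relatives that carry thrombospondin repeats, and they trim procollagens, cleave proteoglycans such as aggrecan and versican, or bind microfibrils. Timps block Mmps and some of the Adamts enzymes. Fibroblasts are a main source of many of them, and many *Mmp* promoters respond to AP-1, the dimer of Fos and Jun proteins.

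The *Mmp* genes of chromosome 9 lie side by side, and 9 members fall between positions 7272514 and 7699585, a stretch of 427 kb (GRCm38). Promoter windows of 300 bases, from 250 before to 50 after a RefSeq start (GRCm38.p6), were on hand for 31 of the 45 members and were searched for the AP-1 motif TGANTCA, which reads the same on both strands. The motif was in the windows of 7 of the 9 cluster genes and of 0 of the 22 other members with a window, beside 7.81% of all 32851 windows of that length. A gene with several windows was counted if any of them matched, whereas the 7.81% is a share of single windows. *Mmp12* and *Mmp7* each also have a window without a match. A match says only that these letters are there. The stretches around the match are shown for the 5 cluster genes that were tested, because their levels are compared with each other below. The motif is in capitals, each sequence runs 5′ to 3′ on the strand of its gene, and none overlaps an exon of the GENCODE M21 annotation.
*Mmp13*, chr9:7272444-7272503, plus strand: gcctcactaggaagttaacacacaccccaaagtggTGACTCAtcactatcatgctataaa
*Mmp12*, chr9:7347295-7347354, plus strand: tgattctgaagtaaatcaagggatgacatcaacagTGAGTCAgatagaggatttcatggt
*Mmp1b*, chr9:7388095-7388154, minus strand: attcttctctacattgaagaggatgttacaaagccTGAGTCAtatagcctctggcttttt
*Mmp3*, chr9:7445741-7445800, plus strand: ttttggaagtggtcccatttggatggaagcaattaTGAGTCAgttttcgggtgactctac
*Mmp10*, chr9:7502244-7502303, plus strand: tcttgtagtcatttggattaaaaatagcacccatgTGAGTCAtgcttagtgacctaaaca
The motif begins 35 bases upstream of the RefSeq start in *Mmp13*, 44 in *Mmp12*, 93 in *Mmp1b*, 46 in *Mmp3* and 63 in *Mmp10*. *Mmp13*, *Mmp12*, *Mmp3* and *Mmp10* are on the plus strand, and *Mmp1b* is on the minus strand and ends inside *Mmp12*. The *Mmp12* stretch belongs to a RefSeq start that lies within the GENCODE gene, and the window of its other start has no match. *Mmp7* and *Mmp20* also hold the motif, and *Mmp8* and *Mmp27* do not.

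The depth was between 24804539 and 30009361 counts per culture. The cultures were fibroblast-like by the level of their markers. The 10 fibroblast markers, including *Col1a1*, *Pdgfra* and *Thy1*, had a summed normalised count between 642762 and 1424959, above that of every other marker list. All 10 were tested for a genotype difference and none was called. Normalised counts are counts scaled to the effective library size. All 12 macrophage markers were also tested, with 0 of them at or under 3 counts in every culture, and their sum ranged from 1986 to 7491 in WT and from 541 to 11038 in Dp1Tyb cultures. Of the other markers, 3 of 7 endothelial, 9 of 10 cartilage, 2 of 8 bone, 2 of 8 skeletal muscle and 3 of 6 epithelial genes were tested and 0 were called, and 5 skeletal muscle markers, including *Myod1* and *Myog*, were at or under 3 counts in every culture. The 8 bone markers still summed to between 45412 and 232341 normalised counts in WT and between 83737 and 227403 in Dp1Tyb. In each genotype this bone sum was highest in replicate 2. The summed normalised count of the 8 skeletal muscle markers ranged from 214 to 449 over the WT cultures and from 394 to 1035 over the Dp1Tyb cultures. *Des* had an unadjusted p below 0.05 with higher levels in Dp1Tyb, as did 1 endothelial and 1 cartilage marker. Another 1 cartilage marker had lower levels at that threshold. Of all genes tested, 1.36% passed it with higher and 1.77% with lower levels. Dp1Tyb replicate 2 and WT replicate 1 stood apart from the other cultures of their genotype, with the largest deviation of the 9 cultures for 5616 and 3240 of the 14567 genes tested. Dp1Tyb replicate 2 was also the lowest culture for 17 of the 33 members, and WT replicate 1 was the lowest for 7 and the highest for 9. Results that change without these cultures are given without them too. The labels give WT replicate 1 and Dp1Tyb replicate 1 the prefix MEF1 and the other 7 cultures the prefix MEF2.

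No member passed the test for a genotype difference. With edgeR's quasi-likelihood test over all genes, 0 of the 33 members had an adjusted p below 0.05, and 0.165% of all genes tested did. The smallest adjusted p of a member was 0.843, for *Mmp17*. DESeq2 also called 0 members. At an unadjusted p below 0.05 there were 7 members (21.2%), beside 3.13% of all genes tested. Of these, *Adamts1*, *Adamts5*, *Adamts12*, *Adamts14* and *Mmp9* had higher levels in Dp1Tyb (1.36% of all genes), and *Mmp17* and *Mmp15* had lower levels (1.77% of all genes). This number was 4 without WT replicate 2, WT replicate 3 or Dp1Tyb replicate 5. It was 12 without both WT replicate 1 and Dp1Tyb replicate 2. The 3.13% holds for all cultures, and the share is not given for these settings, so 4 and 12 cannot be set beside it. Leaving out both cultures also raised the number of all genes with an adjusted p below 0.05, from 24 to 40. In that comparison of 3 WT with 4 Dp1Tyb cultures, *Mmp9* and *Mmp15* had an unadjusted p above 0.05, and *Adamts3*, *Adamts9*, *Adamts16*, *Adamts17*, *Mmp1b*, *Mmp2* and *Timp1* had one below it. In no member were the normalised counts of the 2 genotypes fully separate, beside 0.686% of all genes with every Dp1Tyb culture above every WT culture and 0.673% with every one below. Outside the duplication, 14 of the 31 members tested had a log2 fold change above 0 and 17 below, with a median of -0.06, and the median of all genes tested was 0.0027. There, 5 members (16.1%) had an unadjusted p below 0.05, beside 2.74% of the genes outside the duplication. The 95% interval of the fold change included 0 for 26 of these 31 genes.

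**Figure D1:**
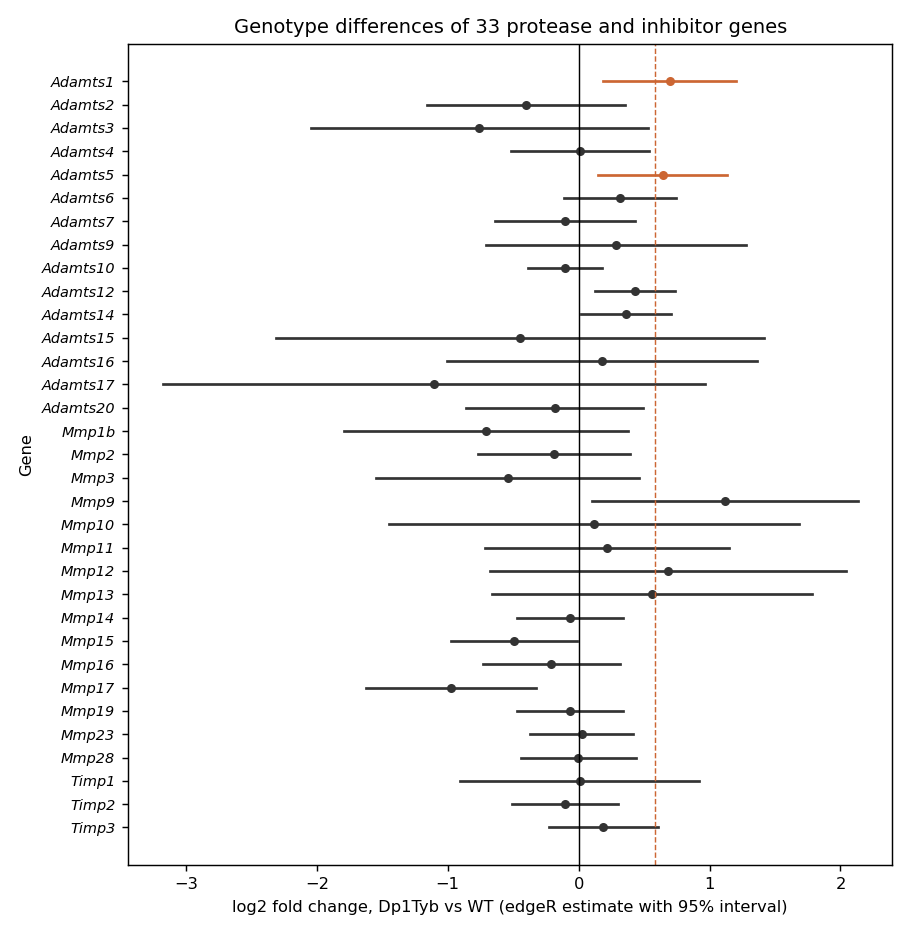
Log2 fold change of Dp1Tyb vs WT (x axis) for each of the 33 members tested (y axis), as edgeR's estimate (point) with its 95% interval (line), with *Adamts1* and *Adamts5* in orange, a solid line at 0 and a dashed line at a fold of 1.5 (0.58). The intervals of *Adamts1*, *Adamts5*, *Adamts12*, *Adamts14* and *Mmp9* lie above 0, those of *Mmp15* and *Mmp17* lie below 0, and the other 26 cross 0.

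The members differed more between cultures of one genotype than most genes did. The median SD of log2 normalised counts within a genotype was 0.44 over the 33 members and 0.22 over all genes tested. This SD was above the median of all genes for 32 of the 33 members (the exception was *Adamts10*, at 0.21), and 13 members were in the top 10% of all genes. *Adamts15* had the widest spread among the members, with an SD of 1.67 and a 34.9-fold range from the lowest to the highest culture. *Adamts17* had a 28.2-fold range and *Mmp10* a 20.03-fold range.

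Levels per length were highest for the inhibitors, the gelatinase *Mmp2* and its activator *Mmp14*. RPKM was computed as the normalised count over the exon length and the library size. The mean over all cultures was above 100 RPKM for 6 members: *Timp2* (402 RPKM), *Timp1* (348), *Mmp2* (249), *Mmp14* (212), *Timp3* (198) and *Adamts1* (104). Another 9 members were at 10 to 100 RPKM, led by *Mmp3* (91.1) and *Mmp13* (74.5), 12 were at 1 to 10, and 6 were below 1. The members below 1 RPKM were *Mmp1b*, *Mmp12*, *Adamts15*, *Adamts16*, *Adamts17* and *Adamts20*.

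**Figure D2:**
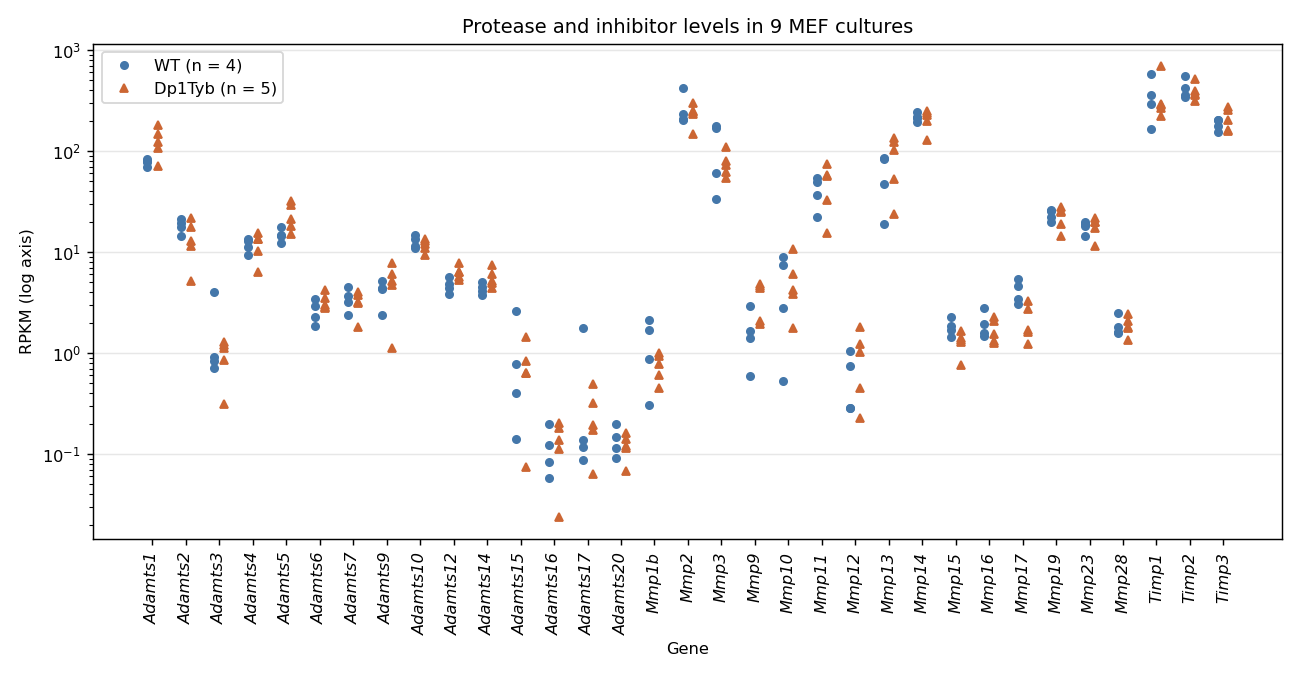
RPKM on a log axis (y axis) of the 33 members tested (x axis) in each culture, with WT as blue circles and Dp1Tyb as orange triangles. The values of the 2 genotypes overlap for every gene, and the cultures of one genotype spread widely for *Adamts15*, *Adamts17*, *Mmp10* and *Mmp12*.

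*Adamts1* and *Adamts5* are the members that lie within the duplication. Both encode proteases that cleave aggrecan and versican. *Adamts1* (ENSMUSG00000022893) is at chromosome 16 from 85793827 to 85803113 and *Adamts5* (ENSMUSG00000022894) at 85856173 to 85901828, both on the minus strand, with 53.1 kb and 0 protein-coding genes between them. In replicate order, *Adamts1* normalised counts were 11730, 9671, 10866 and 11135 in WT and 15046, 9966, 25127, 20589 and 17050 in Dp1Tyb. *Adamts5* normalised counts were 4089, 3495, 4165 and 5079 in WT and 5099, 4338, 9024, 8315 and 6101 in Dp1Tyb. For both genes 4 of the 5 Dp1Tyb cultures were above every WT culture, and Dp1Tyb replicate 2 was within the WT range. For *Adamts5*, Dp1Tyb replicate 1 (5099) was only just above the highest WT culture (5079). The Dp1Tyb cultures also varied more: the mean of *Adamts1* was 10850 ± 865 over the 4 WT cultures and 17556 ± 5716 over the 5 Dp1Tyb cultures, and that of *Adamts5* was 4207 ± 654 and 6575 ± 2027 (SD).

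The fold change of *Adamts1* was 1.62, a log2 fold change of 0.69 with a 95% interval of 0.18 to 1.20 and an unadjusted p of 0.0128. That of *Adamts5* was 1.56, a log2 fold change of 0.64 with an interval of 0.15 to 1.14 and a p of 0.0156. Without WT replicate 1 and Dp1Tyb replicate 2, the log2 fold changes were 0.88 and 0.75. Both intervals hold the 0.58 of a 1.5-fold change, and neither gene was called over all genes. Of the 89 genes of the duplication that were tested, 22 (24.7%) were called, 60 (67.4%) had an unadjusted p below 0.05 with higher levels in Dp1Tyb, and 46 (51.7%) had no overlap between the genotypes. Their median log2 fold change was 0.58, with quartiles of 0.46 and 0.68, so that of *Adamts1* was just above the upper quartile, and 18 of them had a higher value than *Adamts1* and 29 than *Adamts5*. The SD within a genotype was 0.39 for *Adamts1* and 0.37 for *Adamts5*, against a median of 0.23 in the duplication, and 25 and 29 of these genes had a larger one.

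In an exact permutation test, two-sided over all relabelings of the cultures, the mean log2 normalised count of *Adamts1* was 0.63 higher in Dp1Tyb (p = 0.0635) and that of *Adamts5* was 0.60 higher (p = 0.0476), where the smallest p allowed is 0.00794. Without Dp1Tyb replicate 2, the differences were 0.82 and 0.74, each with an exact permutation p of 0.0286. That culture was the only Dp1Tyb culture within the WT range, so leaving it out separated the genotypes fully. This p is then the smallest that the two-sided test allows for groups of equal size, and it adds no support. For *Adamts5*, p was between 0.0536 and 0.0893 when any other culture was left out. Among the cultures with the prefix MEF2, 3 WT and 4 Dp1Tyb, the differences were 0.71 and 0.67, each with an exact permutation p of 0.114 (smallest allowed 0.0286). The MEF1 cultures, 1 of each genotype, differed by 0.36 for *Adamts1* and 0.32 for *Adamts5*, with no test. The ratio of *Adamts1* to *Adamts5* normalised counts was between 2.19 and 2.95 in the 9 cultures. It was 2.87, 2.77, 2.61 and 2.19 in WT and 2.95, 2.30, 2.78, 2.48 and 2.79 in Dp1Tyb, so the ranges of the genotypes overlapped.

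**Figure D3:**
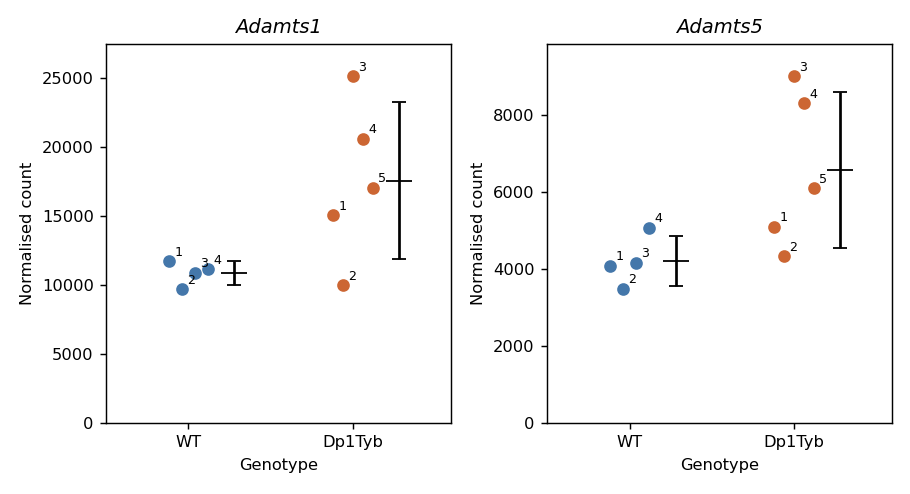
Normalised count (y axis, from 0) of *Adamts1* (left) and *Adamts5* (right) in each WT and Dp1Tyb culture (points, numbered by replicate), with the mean and SD of each genotype in black. For both genes, Dp1Tyb replicates 1, 3, 4 and 5 lie above all WT cultures and Dp1Tyb replicate 2 lies among them. For *Adamts5*, Dp1Tyb replicate 1 is only just above the highest WT culture.

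The gelatinases *Mmp2* and *Mmp9* cleave denatured collagen and basement membrane collagen. *Mmp2* normalised counts were 37852, 17966, 20720 and 18656 in WT and 22350, 13058, 26653, 21581 and 20872 in Dp1Tyb, with WT replicate 1 far above all others and Dp1Tyb replicate 2 the lowest. Its log2 fold change was -0.19, with an interval of -0.77 to 0.40, and it was 0.26 without WT replicate 1 and Dp1Tyb replicate 2. Per length, *Mmp2* was at 249 RPKM and *Mmp9* at 2.71 RPKM. Its normalised counts were 55, 155, 130 and 274 in WT and 182, 456, 193, 407 and 429 in Dp1Tyb. The 3 highest Dp1Tyb cultures were above every WT culture and the other two were within the WT range. The log2 fold change of *Mmp9* was 1.12, with an interval of 0.11 to 2.13 and an unadjusted p of 0.0338, and p rose above 0.05 without any one of 6 cultures, WT replicates 1, 2 and 3 and Dp1Tyb replicates 2, 4 and 5, where it was between 0.0619 and 0.0789. Without WT replicate 1 and Dp1Tyb replicate 2 the log2 fold change of *Mmp9* was 0.70 (unadjusted p = 0.103 with edgeR).

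*Mmp1b*, the collagenase *Mmp13* and the stromelysins *Mmp3* and *Mmp10* are all in the chromosome 9 cluster, as is the macrophage elastase *Mmp12*. Stromelysins cleave proteoglycans and activate other Mmps. *Mmp13* normalised counts were 1346, 3305, 6084 and 5937 in WT and 3726, 1683, 7233, 9405 and 8702 in Dp1Tyb. *Mmp12* had 55, 55, 142 and 201 in WT and 43, 87, 232, 195 and 349 in Dp1Tyb. Both genes were low in WT replicates 1 and 2 and in Dp1Tyb replicates 1 and 2, and higher in the other cultures of both genotypes. *Mmp3* had 1603, 8461, 8086 and 2867 in WT and 2923, 2573, 5236, 3495 and 3795 in Dp1Tyb. *Mmp1b* had 12, 64, 80 and 33 in WT and 30, 17, 38, 23 and 36 in Dp1Tyb. For these 2 genes, WT replicates 2 and 3 were above all Dp1Tyb cultures and WT replicate 1 was below all of them. *Mmp10* had 24, 401, 338 and 128 in WT and 175, 483, 81, 191 and 277 in Dp1Tyb, with the genotypes mixed. The log2 fold changes were 0.56 for *Mmp13*, 0.68 for *Mmp12*, -0.71 for *Mmp1b*, -0.54 for *Mmp3* and 0.12 for *Mmp10*, and all 5 intervals included 0. Without WT replicate 1, *Mmp1b* was at -1.03 (unadjusted p = 0.0159 with edgeR) and *Mmp3* at -0.84 (unadjusted p = 0.0392 with edgeR). Without it and Dp1Tyb replicate 2, *Mmp1b* was at -0.90 (unadjusted p = 0.023 with edgeR) and *Mmp3* at -0.74 (unadjusted p = 0.0632 with edgeR). The intervals over all cultures were wide, from -0.68 to 2.04 for *Mmp12* and from -1.45 to 1.68 for *Mmp10*.

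Over the 9 cultures, *Mmp1b* and *Mmp3* rose and fell together. Pearson's r of their log2 normalised counts was 0.94 (exact permutation p = 3.3e-04, adjusted p = 0.00333 over the 10 pairs of the 5 genes), and Spearman's rho was 0.92 (exact permutation p = 0.00131, adjusted p = 0.0131). The r was 0.86 without WT replicates 1 and 3, the cultures farthest from the median of *Mmp1b*, 0.92 among the MEF2 cultures and 0.94 for deviations from the mean of each genotype. For *Mmp12* and *Mmp13*, r was 0.78 (exact permutation p = 0.0148, adjusted p = 0.0741) and rho was 0.75 (exact permutation p = 0.0255, adjusted p = 0.127). Without WT replicate 1 and Dp1Tyb replicate 2, r was 0.92, and among the MEF2 cultures it was 0.80. The smallest adjusted p of the other 8 pairs was 0.28, and *Mmp1b* and *Mmp12*, which share 157 exon bases on opposite strands, had an r of 0.21. The strand setting of the counting is not given in the sources used here, so reads from those shared bases cannot be assigned with certainty.

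The macrophage markers were set beside *Mmp12* and *Mmp13*. The summed normalised count of the 12 markers was 3994, 1986, 3702 and 7491 in WT and 702, 541, 11038, 4676 and 8818 in Dp1Tyb. Of these, *Lyz2*, the lysozyme of macrophages, made up the largest part, and *Fcgr1* was at 0 in Dp1Tyb replicate 2. The sum and both genes were low in Dp1Tyb replicates 1 and 2, but the orders differed elsewhere: *Mmp13* was highest in Dp1Tyb replicate 4 and the sum in Dp1Tyb replicate 3, and in WT replicate 1 both genes were below their level in WT replicate 3 while the sum was above it. All 12 markers had a log2 fold change above 0, with a median of 0.30, and 0 of them had an unadjusted p below 0.05. Fewer cells of a type and less RNA per cell cannot be told apart in these bulk samples, and the part of macrophages in the levels of both genes was not tested. *Mmp9*, also a product of macrophages, was highest in Dp1Tyb replicate 2, where the marker sum was the lowest.

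**Figure D4:**
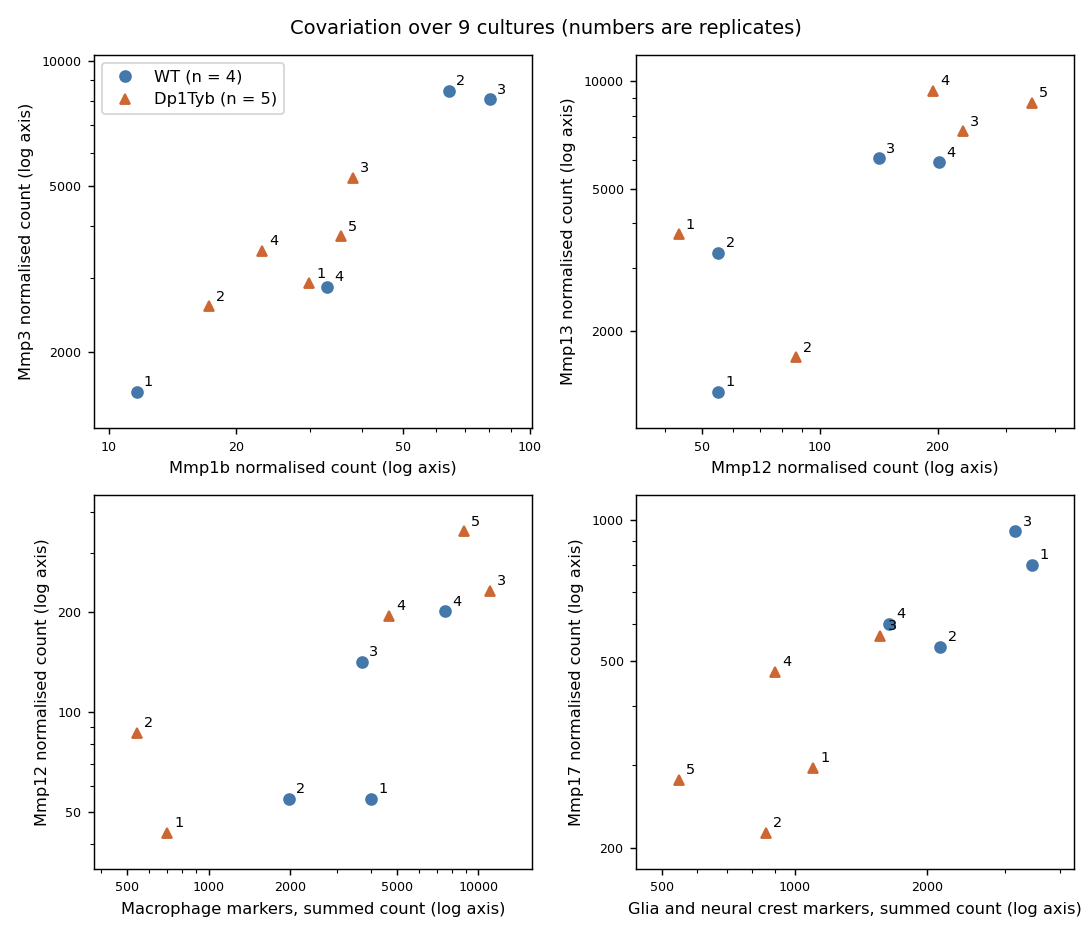
Normalised counts on log axes in the 9 cultures, with WT as blue circles, Dp1Tyb as orange triangles and replicate numbers beside them: *Mmp3* against *Mmp1b* (top left), *Mmp13* against *Mmp12* (top right), *Mmp12* against the sum of 12 macrophage markers (bottom left) and *Mmp17* against the sum of 8 glia and neural crest markers (bottom right). *Mmp1b* and *Mmp3* rise along a line (r = 0.94), and in the bottom right panel all Dp1Tyb cultures lie to the left of all WT cultures.

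*Mmp11*, *Mmp19* and *Mmp28* are secreted enzymes outside the cluster. *Mmp11*, or stromelysin 3, was at 44.3 RPKM and ranged from 1644 to 3919 normalised counts in WT and from 1129 to 5461 in Dp1Tyb (log2 fold change 0.22, interval -0.71 to 1.15). *Mmp19* was at 22.8 RPKM with a log2 fold change of -0.06. *Mmp28* was at 1.87 RPKM, with a log2 fold change of -0.0013 and an interval of -0.44 to 0.44. The genotypes overlapped for all 3 genes.

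Among the membrane-bound proteases, *Mmp14*, the activator of Mmp2 at the cell surface, had overlapping levels in the genotypes, and *Mmp17* and *Mmp15* had lower levels in Dp1Tyb at the unadjusted threshold. *Mmp14* normalised counts ranged from 30625 to 38152 in WT and from 20296 to 39597 in Dp1Tyb, with Dp1Tyb replicate 2 the lowest. Its log2 fold change was -0.06, with an interval of -0.47 to 0.34. *Mmp17*, which is held by a lipid anchor, had 802, 536, 944 and 600 normalised counts in WT and 296, 215, 566, 475 and 279 in Dp1Tyb. All but 1 of the Dp1Tyb cultures were below the lowest WT culture, and the exception, replicate 3, was just above it. The log2 fold change was -0.98 (interval -1.62 to -0.33, unadjusted p = 0.00735, adjusted p = 0.843 with edgeR), from a mean of 720 ± 187 in the 4 WT to 366 ± 147 in the 5 Dp1Tyb cultures (SD). It was -0.78 without WT replicate 1 and Dp1Tyb replicate 2 and -0.85 among the MEF2 cultures.

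Markers of glia and neural crest, like *Mmp17*, were lower in Dp1Tyb. Their summed normalised count was 3456, 2141, 3169 and 1637 in WT and 1102, 861, 1564, 902 and 545 in Dp1Tyb, so every Dp1Tyb culture was below every WT culture. Within a genotype the order of the sum and that of *Mmp17* differed: Dp1Tyb replicate 5 had the lowest sum and replicate 2 the lowest *Mmp17*. Of the 7 markers tested, 5 had an unadjusted p below 0.05 with lower levels in Dp1Tyb, among them *Sox10*, *Erbb3*, *Foxd3* and *Ngfr*, beside 1.77% of all genes, and 0 markers of this list were called at an adjusted p below 0.05. Of the others, *S100b* had a log2 fold change of 0.15 and *Fabp7* of -0.33. The log2 fold changes of *Sox10*, *Erbb3*, *Foxd3* and *Ngfr* were between -1.79 for *Foxd3* and -1.52 for *Ngfr*. The part of these cells in the level of *Mmp17* was not tested.

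*Mmp15* had 243, 262, 327 and 206 normalised counts in WT and 235, 194, 201, 185 and 109 in Dp1Tyb. Of the Dp1Tyb cultures, replicate 1 was within the WT range and the other 4 were below it. The log2 fold change was -0.49, with an interval of -0.97 to -0.01 and an unadjusted p of 0.046, and p stayed below 0.05 with 1 culture left out only when that culture was WT replicate 4 or Dp1Tyb replicate 1. It was between 0.0568 and 0.146 without any other culture, 0.0519 with the label prefix as a covariate and 0.0684 without WT replicate 1 and Dp1Tyb replicate 2. *Mmp16* ranged from 339 to 631 in WT and from 289 to 515 in Dp1Tyb, and *Mmp23*, at 17.8 RPKM, ranged from 881 to 1219 and from 707 to 1349. Both intervals included 0, with log2 fold changes of -0.21 and 0.02.

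Of the other Adamts proteases, *Adamts12* and *Adamts14* had higher levels in Dp1Tyb at the unadjusted threshold, and both lie outside the duplication, on chromosomes 15 and 10. *Adamts12*, which with *Adamts7* encodes a protease of cartilage oligomeric matrix protein, had 1637, 1279, 1103 and 1386 normalised counts in WT and 2263, 1639, 1540, 1828 and 1836 in Dp1Tyb. Dp1Tyb replicate 3 was within the WT range and the other 4 were above it, though replicate 2 exceeded the highest WT culture by only 2 counts after rounding. The log2 fold change of *Adamts12* was 0.43, with an interval of 0.12 to 0.74 and an unadjusted p of 0.0112. *Adamts7*, its relative, had a log2 fold change of -0.11 and an interval of -0.64 to 0.43. *Adamts14*, which removes the amino-terminal propeptide of procollagen, had 699, 562, 520 and 612 normalised counts in WT and 826, 707, 610, 683 and 1020 in Dp1Tyb, and 3 of the Dp1Tyb cultures were above all WT cultures. The log2 fold change of *Adamts14* was 0.36, with an interval of 0.02 to 0.71 and an unadjusted p of 0.041. The p was between 0.0594 and 0.11 without any one of WT replicates 2, 3 and 4 and Dp1Tyb replicates 1 and 5. For *Adamts12* it was below 0.05 whichever culture was left out.

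The procollagen proteases did not move one way. *Adamts2*, at 15.8 RPKM the most abundant of the 3, had 5288, 3556, 4803 and 4353 normalised counts in WT and 2850, 1259, 5403, 4379 and 3147 in Dp1Tyb, a log2 fold change of -0.40 with an interval of -1.16 to 0.36. *Adamts3* had 575, 130, 103 and 118 in WT and 185, 44, 123, 160 and 172 in Dp1Tyb. Its log2 fold change of -0.76 rested on WT replicate 1: without it the value was 0.23, and without it and Dp1Tyb replicate 2 it was 0.46.

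The proteoglycan-cleaving *Adamts4*, *Adamts9*, *Adamts15* and *Adamts20* had an unadjusted p above 0.05 over all cultures. *Adamts4*, at 11.7 RPKM, ranged from 1183 to 1704 normalised counts in WT and from 798 to 1971 in Dp1Tyb, and its log2 fold change was 0.01 with an interval of -0.52 to 0.53. *Adamts9* ranged from 950 to 2069 in WT and from 450 to 3098 in Dp1Tyb (log2 fold change 0.28, interval -0.71 to 1.28), with Dp1Tyb replicate 2 the lowest. Without that culture the log2 fold change of *Adamts9* was 0.54 (unadjusted p = 0.0484 with edgeR), and without it and WT replicate 1 it was 0.68 (unadjusted p = 0.0204 with edgeR). *Adamts15* had 717, 38, 110 and 215 in WT and 175, 21, 393, 228 and 175 in Dp1Tyb, with the highest level in WT replicate 1 and the lowest in Dp1Tyb replicate 2. Its log2 fold change was -0.45 and turned to 0.71 without WT replicate 1. *Adamts20* was low, at 16 to 47 normalised counts, with a log2 fold change of -0.18.

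*Adamts10* and *Adamts17* encode proteins that associate with fibrillin microfibrils, and the substrates of *Adamts6* and *Adamts16* are less well described. *Adamts10*, the steadiest member, ranged from 2362 to 3229 normalised counts in WT and from 2038 to 2925 in Dp1Tyb, a log2 fold change of -0.10 with an interval of -0.39 to 0.18. *Adamts17* had 366, 24, 29 and 18 in WT and 66, 13, 101, 35 and 40 in Dp1Tyb. WT replicate 1 alone set its negative log2 fold change of -1.11, which was 1.12 without that culture. *Adamts6* ranged from 383 to 712 in WT and from 571 to 863 in Dp1Tyb (log2 fold change 0.32, interval -0.11 to 0.75), and *Adamts16* had 4 to 36 normalised counts and a log2 fold change of 0.18. Without WT replicate 1 and Dp1Tyb replicate 2, the log2 fold change of *Adamts16* was 0.84 (unadjusted p = 0.0352 with edgeR) and that of *Adamts17* was 1.37 (unadjusted p = 0.00926 with edgeR). That of *Adamts6* was 0.49 without WT replicate 4 (unadjusted p = 0.0276 with edgeR).

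None of the 3 inhibitors tested passed the unadjusted threshold. *Timp1*, a secreted inhibitor whose gene is on the X chromosome, had 3839, 13491, 8419 and 6868 normalised counts in WT and 6859, 16098, 5152, 6619 and 6292 in Dp1Tyb. The highest levels were in WT replicate 2 and Dp1Tyb replicate 2. The log2 fold change of *Timp1* was 0.01, with an interval of -0.90 to 0.92, and it was -0.62 without WT replicate 1 and Dp1Tyb replicate 2. *Timp2*, which also takes part in the activation of Mmp2 by Mmp14, ranged from 34989 to 56918 in WT and from 32518 to 53023 in Dp1Tyb, with a log2 fold change of -0.11 and an interval of -0.51 to 0.30. *Timp3*, which binds to the matrix and inhibits aggrecan-cleaving Adamts enzymes, ranged from 32871 to 43800 in WT and from 34104 to 58314 in Dp1Tyb. Its log2 fold change was 0.19, with an interval of -0.23 to 0.61. *Timp3* and *Syn3* share 1733 exon bases on opposite strands, and *Syn3* had no more than 58 counts in any culture.

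Summed over each family, the levels overlapped between the genotypes. The RPKM of the 22 *Mmp* genes summed to 753 ± 73.7 over the 4 WT and 710 ± 187 over the 5 Dp1Tyb cultures (SD), and *Mmp2* and *Mmp14* made up 63.2% of it. The 19 *Adamts* genes summed to 157 ± 17.3 in WT and 211 ± 62.1 in Dp1Tyb, of which *Adamts1* and *Adamts5* made up 65.9%. The sum was 176, 134, 158 and 161 RPKM in WT and 186, 124, 287, 250 and 209 RPKM in Dp1Tyb, so 4 Dp1Tyb cultures were above all WT cultures and Dp1Tyb replicate 2 was the lowest of all. The 4 *Timp* genes summed to 950 ± 265 and 948 ± 238, with 79.1% from *Timp2* and *Timp1*, and the highest sums were in WT replicate 2 and Dp1Tyb replicate 2.

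**Figure D5:**
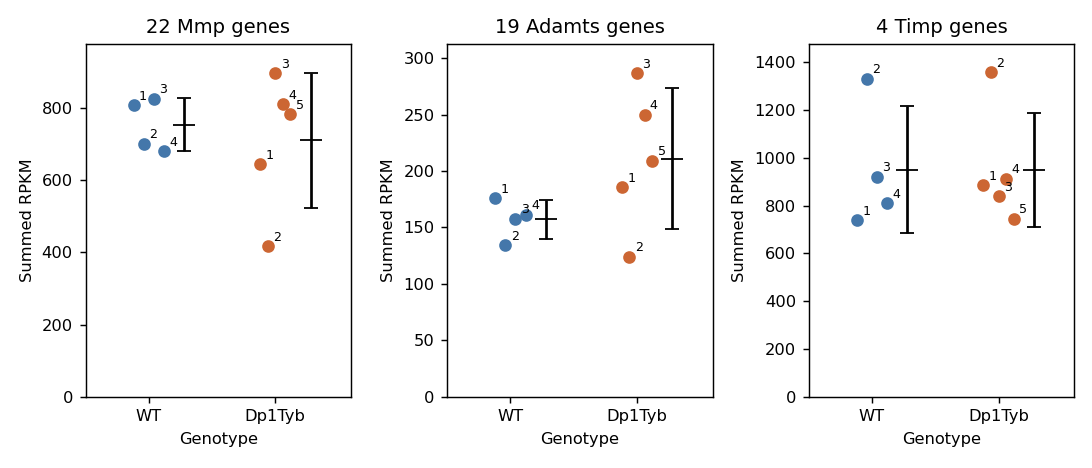
Summed RPKM (y axis, from 0) of the *Mmp* (left), *Adamts* (middle) and *Timp* genes (right) in each WT and Dp1Tyb culture (points, numbered by replicate), with the mean and SD of each genotype in black. Dp1Tyb replicate 2 has the lowest *Mmp* and *Adamts* sums and the highest *Timp* sum, 1358 RPKM.

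The 12 members that were not tested had low counts in every culture. *Adamts13*, *Mmp7*, *Mmp20* and *Mmp21* had at most 3 counts in any culture, *Adamts19*, *Mmp8*, *Mmp24* and *Mmp27* at most 8, and the other 4 exceeded 10 counts in some culture. *Mmp25*, a lipid-anchored protease of leukocytes, had 2 to 17 counts, *Timp4* 2 to 13, *Adamts18* 2 to 12 and *Adamts8* 1 to 12. At this depth a genotype difference could not be assessed in these genes.

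Genes that act with the proteases were grouped into 7 lists, and 0 of their genes were called in either direction, beside 0.165% of all genes tested. At an unadjusted p below 0.05, the share of all genes tested to set beside each list was 3.13%. In the list of protease activators and the plasminogen system, 13 of 15 genes were tested, 0 had an unadjusted p below 0.05, and the median log2 fold change was 0.05, with 0.0027 for all genes. The 2 with the largest log2 fold change were *Plau*, the urokinase that makes plasmin (0.76, interval -0.50 to 2.03), and its receptor *Plaur* (0.52). *Plau* had 640, 2514, 1160 and 1094 normalised counts in WT and 1375, 5896, 1236, 1229 and 1740 in Dp1Tyb. *Plau*, *Plaur* and *Timp1* shared their lowest culture, WT replicate 1, and were all highest in Dp1Tyb replicate 2 and next highest in WT replicate 2. Extremes in WT replicate 1 and Dp1Tyb replicate 2 were common, as these cultures had the largest deviation for 3240 and 5616 of the 14567 genes tested. All 18 transcription factors of Mmp promoters were tested, with a median of 0.01, and 1 of them, *Jun*, an AP-1 subunit, had an unadjusted p below 0.05 in edgeR's test (-0.34, interval -0.63 to -0.05). *Egr1* had a log2 fold change of -0.46. The 3 of them within the duplication were *Ets2* (0.38, interval -0.06 to 0.81), *Runx1* (0.21, interval -0.13 to 0.56) and *Erg* (-0.33, interval -1.42 to 0.75). *Ets2* was called without WT replicate 1 and Dp1Tyb replicate 2, with a log2 fold change of 0.68 and an adjusted p of 0.0382.

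Of the matrix substrates, 19 of 20 were tested and 5 had an unadjusted p below 0.05, beside 3.13% of all genes tested (1.36% higher and 1.77% lower in Dp1Tyb). Higher levels were seen for fibronectin *Fn1* (0.36), *Nid1* (0.32) and the laminin *Lamb1* (0.28), and lower levels for *Comp* (-1.20) and *Reln* (-0.94), where the values are log2 fold changes, with a median over the list of 0.06. *Comp*, the substrate of Adamts7 and Adamts12, had 747, 335, 180 and 149 normalised counts in WT and 276, 197, 123, 108 and 64 in Dp1Tyb, so the genotypes overlapped. All 7 Adamts-like proteins, relatives without a protease domain, were tested, with a median of -0.04 and 1 unadjusted p below 0.05, for *Adamtsl4* (-0.59, interval -1.02 to -0.15). The other one with a large log2 fold change was *Adamtsl2* (0.47). Of 12 Adam proteases, 11 were tested with a median of 0.03. *Adam19* had a log2 fold change of 0.46 (interval 0.09 to 0.84), the 1 gene of this list with an unadjusted p below 0.05, and *Adam11* of -0.55. Of 12 cytokines and growth factors, 11 were tested with a median of 0.27 and 0 had an unadjusted p below 0.05. The largest values were for *Tnf* (1.34) and *Osm* (0.91), both products of macrophages, and both had their highest normalised count in Dp1Tyb replicate 3, as did the macrophage markers. All 5 protease uptake receptors were tested with a median of -0.04. *Lrp1*, which takes up many of these proteases, had a log2 fold change of 0.17 and *Lrp1b* of -0.22.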

How the data were processed

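RNA from 9 MEF cultures, 4 WT and 5 Dp1Tyb, was analysed as grouped by the genotype in the labels. The authors trimmed paired-end reads with Trim Galore, mapped them to GRCm38 with TopHat2 2.0.12, discarded reads with more than one alignment and counted reads per gene with HTSeq. The deposited counts are whole reads per gene without normalisation. Reads that fit related genes equally well are therefore missing from the counts of both. The deposited normalised table and the table of DESeq2 1.6.3 results, which holds fold changes and p-values of the same comparison, were not used.

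The members, the lists of related genes and the markers were chosen with earlier results of these data known, and a marker gene is not reported here. Of 43629 genes, 42462 were matched to GENCODE M21. Genes were tested with edgeR 4.0.16 in R 4.3.3 (TMM normalisation, its filter on low counts, quasi-likelihood test, two-sided, no covariate), and p-values were adjusted by Benjamini-Hochberg over all 14567 genes tested, with a call below 0.05. Normalised counts are TMM-scaled. RPKM used the summed exon length. Single genes were tested with exact permutation tests on log2 of the normalised count plus 1, and correlations with exact permutation of the pairings. Every member tested is named, members not tested are named with their counts if some culture exceeded 10, and from each list the genes called, those within the duplication and the 2 with the largest absolute log2 fold change are named. Other list genes with an unadjusted p below 0.05 were named after their values were seen. Alternatives were DESeq2's size factors, TMM factors without the duplicated genes, DESeq2 1.42.0, no filter, at least 10 counts in every culture, the label prefix as a covariate, MEF2 cultures alone, a replicate block and each culture left out. Leaving out WT replicate 1 and Dp1Tyb replicate 2 together was chosen after seeing the data. Total counts were between 24804539 and 30009361 per culture, and 3 counts were taken as the floor, which covers counting error only. Replicates are cultures of separate embryos, so p-values measure the spread between cultures. Promoter windows are from RefSeq (GRCm38.p6) and matched 31 members.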

Additional observations from a re-analysis of the deposited data

Results flagged for a closer look

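In 66 groups of cultures, the 4 WT and the 5 Dp1Tyb values of each of the 33 members, 4 had a highest or lowest culture that lay far from the others of its genotype, measured by its gap to the nearest culture over the whole range of the group. Chance alone would give about 1 in 20 such groups, so 4 of 66 is near the share that chance gives. WT replicate 1 was the outlying culture in 3 of them, with 575 normalised counts for *Adamts3*, 366 for *Adamts17* and 37852 for *Mmp2*, each the highest of the WT cultures. Dp1Tyb replicate 2 was the outlying culture in the other, with 16098 normalised counts for *Timp1*, the highest of the Dp1Tyb cultures.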

How the results depend on the processing

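At an adjusted p below 0.05, 0 members were called under each of the alternatives run. Over all genes, 24 were called, and 68 with DESeq2, 1 among the MEF2 cultures, 40 without WT replicate 1 and Dp1Tyb replicate 2, and between 2 (without WT replicate 2 or WT replicate 3) and 26 (without Dp1Tyb replicate 2) with 1 culture left out. The cultures with the same replicate number deviated together by r = 0.247, 0.732, 0.030 and 0.382, so the numbers were not taken as pairs, and with a replicate block 0 genes and 0 members were called. Without both cultures that stand apart, 12 members had an unadjusted p below 0.05 and 1 gene of the lists, *Ets2*, was called, and with 1 culture left out the members numbered between 4 and 7. For these settings the share of all genes at that unadjusted threshold is not given. By exact permutation, the difference of *Adamts1* was 0.86 (p = 0.0286, the smallest allowed) without both cultures and between 0.48 and 0.82 with 1 left out. That of *Adamts5* was 0.73 (exact permutation p = 0.0571) without both, 0.67 among the MEF2 cultures and between 0.47 and 0.74 with 1 left out. The cause was not tested.

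The sign of some log2 fold changes that were not called turned. Without both cultures they were 0.46 for *Adamts3*, 0.20 for *Adamts7*, 0.057 for *Adamts10*, 1.00 for *Adamts15*, 1.37 for *Adamts17*, 0.20 for *Adamts20*, 0.26 for *Mmp2*, -0.67 for *Mmp10*, 0.13 for *Mmp14*, 0.27 for *Mmp28* and -0.62 for *Timp1*. Among the MEF2 cultures they were 0.10 for *Adamts3*, -0.037 for *Adamts4*, 0.0043 for *Adamts10*, 0.75 for *Adamts15*, 1.01 for *Adamts17*, 0.10 for *Mmp2*, -0.17 for *Mmp10*, 0.012 for *Mmp14*, 0.064 for *Mmp28* and -0.17 for *Timp1*. The label prefix as a covariate gave -0.0012 for *Adamts4*, 0.15 for *Adamts15*, 0.22 for *Adamts17* and 0.036 for *Mmp28*. The replicate block gave -0.10 for *Adamts4*, -0.0016 for *Mmp11*, -0.042 for *Mmp23* and 0.018 for *Mmp28*. *Mmp28* was also at 0.0063 with DESeq2's size factors, 0.00029 with TMM factors without the duplication, 0.0077 with DESeq2 and 0.0031 with at least 10 counts in every culture. With 1 culture left out, the ranges that crossed 0 were -1.004 to 0.23 for *Adamts3*, -0.11 to 0.17 for *Adamts4*, -0.25 to 0.057 for *Adamts7*, -0.86 to 0.71 for *Adamts15*, -0.040 to 0.58 for *Adamts16*, -1.51 to 1.12 for *Adamts17*, -0.33 to 0.056 for *Adamts20*, -0.30 to 0.13 for *Mmp2*, -0.30 to 0.57 for *Mmp10*, -0.0045 to 0.44 for *Mmp11*, -0.14 to 0.066 for *Mmp14*, -0.33 to 0.0098 for *Mmp16*, -0.15 to 0.058 for *Mmp19*, -0.069 to 0.15 for *Mmp23*, -0.10 to 0.17 for *Mmp28*, -0.39 to 0.36 for *Timp1* and -0.23 to 0.056 for *Timp2*.

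Among the MEF2 cultures, r was -0.62 for *Mmp13* and *Mmp10*, -0.18 for *Mmp12* and *Mmp1b*, -0.35 for *Mmp12* and *Mmp3* and -0.62 for *Mmp12* and *Mmp10*. With 1 culture left out, r ranged from -0.56 to 0.57, from -0.051 to 0.46, from -0.069 to 0.52 and from -0.38 to 0.26 in the same pairs, and from 0.91 to 0.96 for *Mmp1b* and *Mmp3*. Depth limits what can be said of members with few counts, such as *Mmp1b*, *Adamts16* and *Adamts20*, and of the 12 members not tested.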
